A study of Rattus norvegicus with 12 samples.

Results

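The loci described here are transcribed stretches of the rat genome that the deposited expression table lists without a gene name, under identifiers made of a prefix and a number. Each is named here by that number, so that locus 2097 is the row whose identifier ends in 2097. A locus was taken where it reached at least 5 FPKM (fragments per kilobase of transcript, scaled by depth) in at least 3 of the 12 libraries. That rule took 83 of 3241 unnamed loci, in a table of 33801 rows. The expression level itself chose them, so their levels are given as a description.

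RNA came from bone around mini-implants at the first molar site of the upper jaw in wild-type (WT) rats. The implants were of the alloy Zr58Cu25Al14Nb3 (Nb3 alloy) or of titanium (cpTi), and were loaded cyclically for 2 weeks or left static. There were 3 libraries each beside loaded Nb3 alloy, beside non-loaded Nb3 alloy, beside loaded cpTi and beside non-loaded cpTi, which makes 4 groups. The labels do not say whether the replicates are separate animals, so p-values measure only the spread between these samples.

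An assembler reports an unnamed locus where spliced or stacked reads lie outside the gene models it was given. Such a locus can be a gene that those models lack, an extension of a neighbouring gene's transcript, a long non-coding RNA, an RNA read from a neighbour's promoter in the opposite direction, or a transcribed retroviral remnant. Alveolar bone encloses marrow, in which red cells, neutrophils and B cells mature, so RNA of blood-forming cells is measured along with that of bone.

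The 3 libraries of loaded Nb3 alloy stood apart from the other 9, with correlations of 0.731 to 0.866 against them over the tested rows, while the other 9 correlated at 0.932 to 0.969 among themselves. Depth was 12.9 to 22.3 M reads on genes per library. Mitochondrial genes took 11.3% to 24.3% of reads in loaded Nb3 alloy and 4.31% to 6.86% in the other groups. Summed levels of 7 erythroid markers were 5.28 to 18.6 FPKM in loaded Nb3 alloy and 1492 to 1962 FPKM in non-loaded Nb3 alloy. Summed levels of 8 neutrophil precursor markers were 10.9 to 91.0 FPKM in loaded Nb3 alloy and 3364 to 7548 FPKM in non-loaded Nb3 alloy. All 10 bone markers were in the table, and 1 of the 10 was higher in loaded Nb3 alloy. In these bulk samples fewer cells of a type and less RNA per cell cannot be told apart, and the part of these differences in the results on the loci was not tested.

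The 83 loci carried 0.267% to 0.399% of the reads in loaded Nb3 alloy, 0.284% to 0.384% in non-loaded Nb3 alloy, 0.298% to 0.301% in loaded cpTi and 0.300% to 0.323% in non-loaded cpTi. Mean levels over the 12 libraries ran between 3.15 and 494 FPKM, with a median of 6.88 FPKM. The median locus had 194.5 reads per library. Of the 83 loci, 31 reached 5 FPKM in every library and 11 in exactly 3. In 28 no library of loaded Nb3 alloy reached 5 FPKM, while loci 1336 and 1878 reached it in loaded Nb3 alloy alone. Loci 486, 1444 and 2330 reached it in every loaded Nb3 alloy library, with too few others to pass without them. Loci 59, 1983, 2001, 2669 and 2670 also had too few other libraries at 5 FPKM to pass without loaded Nb3 alloy. At the threshold, the level in the third highest library was 5.01 FPKM at locus 295, 5.02 FPKM at locus 1847 and 5.08 FPKM at locus 2178, just inside the rule. It was 4.997 FPKM at locus 1792, 4.97 FPKM at locus 2850 and 4.96 FPKM at locus 387, just outside.

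None of the 83 loci overlapped a gene with a symbol, but 47 lay within 5 kb of one. Among these 47, 24 lay tail to tail with the nearest named gene, so that both transcripts end towards each other, and 16 of the 24 were within 100 bases of it. Another 13 lay on the same strand as their neighbour. The remaining 10 lay head to head, and 6 of those were within 200 bases, beside Cyb561a3, Setd7, Mir3566, Prpf4, Abi3 and Mgat2. The library kit is not stated to keep strand, so reads from a gene and from a locus running against it cannot be told apart where they meet. Orientation is as listed in the table. Of the 24 tail-to-tail loci, 6 are single blocks, so no splice junction bears on their strand. The median transcript length was 1646 bases for the 83 loci, against 868 bases for the 659 other unnamed loci that passed the test filter.

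Of the head-to-head neighbours within 200 bases, Mgat2, Prpf4 and Cyb561a3 are shown by their start regions. They are those whose start regions were found in the RefSeq sequence tables. Each run is 300 bases, 250 before to 50 after the gene's start in the GRCr8 build, on the plus strand. No source used here names the build of the deposited positions, and whether a window holds the start of the locus was not determined. Capitals mark the GC box GGGCGG and the CCAAT box CCAAT on either strand.
Mgat2, chr6:93392166-93392465: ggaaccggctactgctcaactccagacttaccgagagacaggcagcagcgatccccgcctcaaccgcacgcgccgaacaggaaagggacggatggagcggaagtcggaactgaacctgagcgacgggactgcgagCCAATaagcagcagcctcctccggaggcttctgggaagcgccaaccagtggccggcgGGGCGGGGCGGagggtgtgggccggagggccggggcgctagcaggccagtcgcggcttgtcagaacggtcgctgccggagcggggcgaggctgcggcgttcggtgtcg
Prpf4, chr5:80875261-80875560: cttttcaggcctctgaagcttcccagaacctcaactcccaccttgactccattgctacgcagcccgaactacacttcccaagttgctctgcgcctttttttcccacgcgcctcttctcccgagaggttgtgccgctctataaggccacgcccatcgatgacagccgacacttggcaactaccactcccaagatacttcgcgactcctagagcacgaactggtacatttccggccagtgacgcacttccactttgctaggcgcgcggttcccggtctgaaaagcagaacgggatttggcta
Cyb561a3, chr1:216640858-216641157: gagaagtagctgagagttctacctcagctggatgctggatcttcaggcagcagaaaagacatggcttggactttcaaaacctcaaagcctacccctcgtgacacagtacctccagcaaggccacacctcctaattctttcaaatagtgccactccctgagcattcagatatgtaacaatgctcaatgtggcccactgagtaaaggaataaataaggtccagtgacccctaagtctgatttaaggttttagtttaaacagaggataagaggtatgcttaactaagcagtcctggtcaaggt
The Mgat2 window held 2 GC boxes, which overlap by 1 base, and 1 CCAAT box, while the Prpf4 and Cyb561a3 windows held 0 of either. The TATA box TATAAA was in 0 of these windows. Over 33469 RefSeq rat start regions of the same length, 33.1% held a GC box, 37.5% a CCAAT box and 14.2% a TATA box. GC content was 69.0% beside Mgat2, 55.7% beside Prpf4 and 45.0% beside Cyb561a3.

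A protein match was given in the table's description for 29 of the 83 loci. For 28 a gene symbol could be read from the match, and 24 of those symbols stand on no other row of the table. Among the 24 are human names of immunoglobulin segments and the viral pol and env. Those are not rat gene names and could not be found, so 24 is no count of missing genes. For 12 loci, RefSeq GRCr8 places the matched gene between the same 2 flanking genes that flank the locus in the table. These are locus 2291 (Rpl7), 289 (Cox8a), 3025 (Rpl36), 3023 (Ccr1), 395 (Gngt2), 2268 (Tapbpl), 688 (Psmd9), 2418 (Cdc26), 1641 (Msh3), 987 (Ltb4r), and both 1306 and 1307 (Wdr33). Another 8 matched immunoglobulin heavy chain variable segments, 3 matched retroviral proteins and 6 matched other proteins. The other 54 had no match.

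Of the 10 loci with the highest mean, 3 (2291, 289 and 3025) had their matched gene between the same flanking genes in RefSeq. For loci 2619 and 1938, also among the 10, RefSeq has Rpl36al1 and Oip5-as1 between the flanking genes. Position was not compared, and 60 of the 73 loci with both flanking genes in RefSeq had some gene between them that the table lacks. Locus 2291 (chr5:3216603-3220227), matched to Rpl7, a protein of the large ribosomal subunit, had 516, 537 and 513 FPKM in loaded Nb3 alloy and 347, 617 and 482 FPKM in non-loaded Nb3 alloy. It had 509, 439.9 and 478 FPKM in loaded cpTi and 459, 471 and 553 FPKM in non-loaded cpTi. These ranges overlap in both materials. Locus 289, matched to Cox8a of the respiratory chain, averaged 130.03 ± 22.4 FPKM in loaded Nb3 alloy and 122 ± 31.4 FPKM in non-loaded Nb3 alloy (SD, n = 3 each). Locus 2619, matched to ribosomal protein RPL36A, averaged 124 ± 17.9 FPKM in loaded Nb3 alloy and 98.4 ± 29.7 FPKM in non-loaded Nb3 alloy (SD, n = 3 each). None of the 10 loci with the highest mean was called in the comparison of loading in Nb3 alloy with all 12 libraries. Among them, locus 287 had 230, 137 and 23.4 FPKM in loaded Nb3 alloy against 36.4, 70.3 and 24.9 FPKM in non-loaded Nb3 alloy. Its difference is carried by 2 of the loaded libraries, and without loaded Nb3 alloy replicate 3 it was called, at 2.12 on the log2 scale with a limma adjusted p of 0.0277. Locus 296 was also called without that library, at 1.12 with a limma adjusted p of 0.00516.

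Differences were tested with limma on log2(FPKM + 1) over 15268 rows, and calls were made at an adjusted p (Benjamini-Hochberg) below 0.05. Differences are in log2 units on that scale. With loading beside Nb3 alloy, 13 loci were higher and 28 lower, which is 49.4% of the 83, where 45.8% of all tested rows were called, 20.7% higher and 25.2% lower. The share of the loci is thus close to the background. The median difference was -0.02 for the loci and -0.02 for all tested rows. Scaled to total reads instead, the median of all rows became -0.17 and the loci split into 6 higher and 31 lower, where all 15268 rows split into 2266 higher and 4670 lower. Since the rule used the same levels, these counts describe the 83 loci only.

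**Figure D1:**
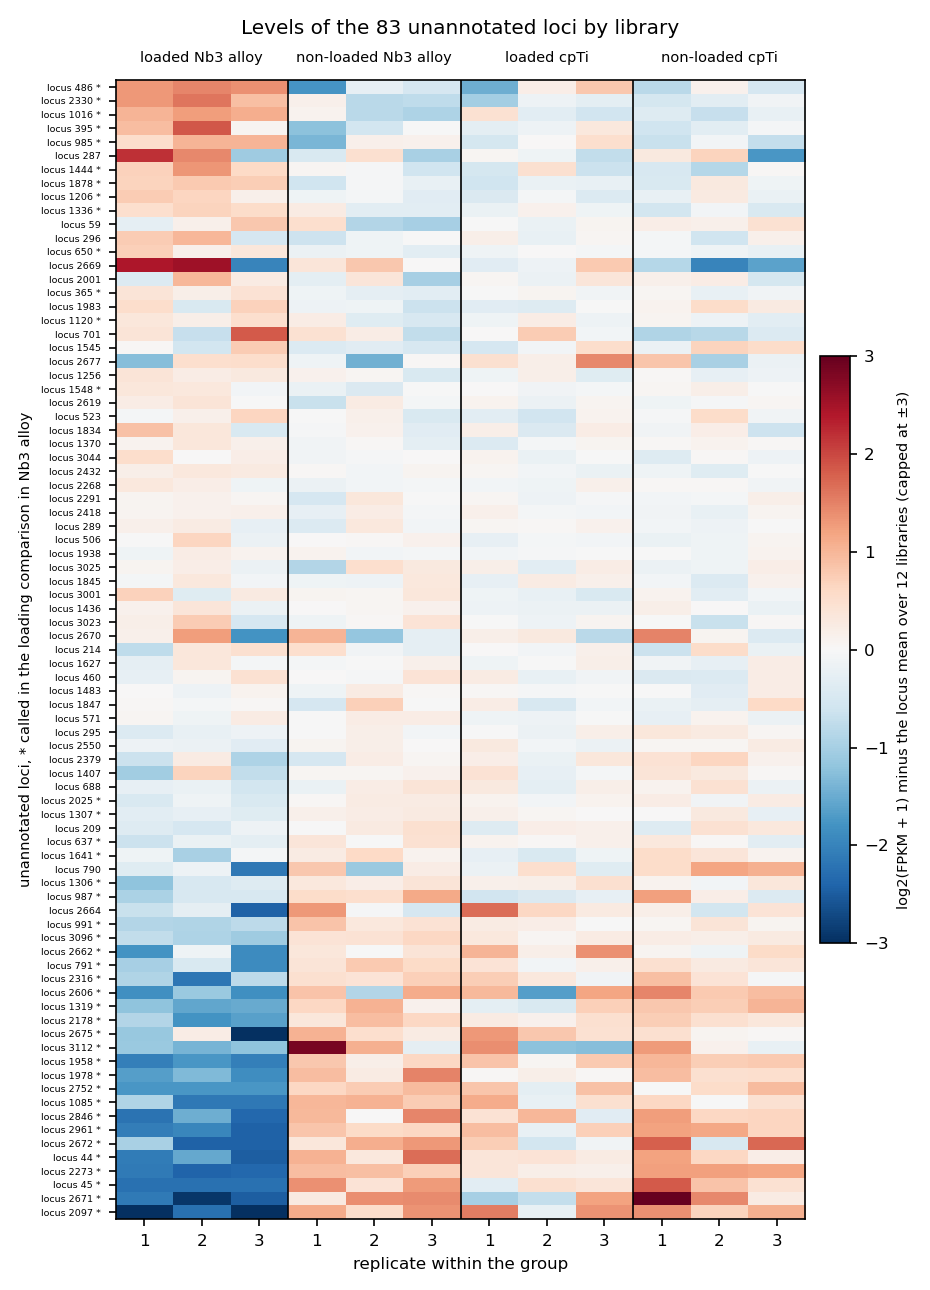
Each row is 1 of the 83 loci, ordered by the difference between loaded and non-loaded Nb3 alloy, and each column is 1 library in its group. Colour gives log2(FPKM + 1) minus the mean of the locus over the 12 libraries, and the 13 higher and 28 lower loci marked with an asterisk differ mainly in the loaded Nb3 alloy columns.

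The largest fall was at locus 2097 (chr4:17516378-17517016), which had 0.405, 1.85 and 0.385 FPKM in loaded Nb3 alloy and 28.3, 18.4 and 33.3 FPKM in non-loaded Nb3 alloy. It had 38.4, 10.7 and 33.6 FPKM in loaded cpTi and 33.7, 20.5 and 27.5 FPKM in non-loaded cpTi. Every loaded Nb3 alloy library was thus below every other library, and the cpTi groups overlapped. The difference was -3.93 ± 0.45 (SE) with a limma adjusted p of 6.1e-05 in Nb3 alloy, and -0.14 ± 0.45 with an adjusted p of 0.966 in cpTi. The nearest annotated row without a gene name, RGD1565355, described as like platelet glycoprotein 4, also fell, by 2.73. The locus lies 2475 bases downstream of that row on the same strand. Between the flanking genes Gnat3 and Sema3c, RefSeq places Cd36, Cd36l1 and Cd36-ps1, whose symbols stand on no row of the table. The nearest named gene, Sema3c, encoding a secreted guidance protein, lies 66196 bases away and rose by 2.13.

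Locus 2273 (chr4:162002326-162009704), in the natural killer receptor region near Klrb1a, had 0.423, 0.180 and 0.215 FPKM in loaded Nb3 alloy and 10.9, 10.7 and 9.19 FPKM in non-loaded Nb3 alloy. It had 6.96, 5.98 and 5.95 FPKM in loaded cpTi and 13.6, 13.5 and 13.0 FPKM in non-loaded cpTi. The groups did not overlap in either material, with the loaded group lower in each. The difference was -3.15 ± 0.12 with a limma adjusted p of 6.7e-08 in Nb3 alloy. In cpTi it was -0.98 ± 0.12 with an adjusted p of 0.0539, the smallest of the 83 loci in that comparison, and 0.0479 without loaded Nb3 alloy replicate 1 (limma). An annotated row 153 bases away, described as similar to osteoclast inhibitory lectin, fell by 2.35 in Nb3 alloy.

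Loci beside formyl peptide receptor genes, which serve neutrophils in sensing bacterial peptides, fell as well. Locus 44 had 0.392, 1.05 and 0.0800 FPKM in loaded Nb3 alloy and 11.3, 6.50 and 18.2 FPKM in non-loaded Nb3 alloy, without overlap. Its difference was -3.05 ± 0.35 (limma adjusted p 6.4e-05), and Fpr1, head to head with it at 1160 bases, fell by 3.89. Locus 45, whose match is formyl peptide receptor 2, was listed at 0 in all 3 loaded Nb3 alloy libraries and had 11.3, 5.26 and 10.4 FPKM in non-loaded Nb3 alloy. Its difference of -3.26 on the log2(FPKM + 1) scale depends on the pseudocount of 1 and is no bound on the fold (limma adjusted p 4.5e-05). Fpr2 has a row of its own, 44931 bases from locus 45. That row averaged 9.93 ± 16.5 FPKM in non-loaded Nb3 alloy, 0.292 in loaded cpTi and 0.571 in non-loaded cpTi (SD, n = 3 each). Locus 45 averaged 4.47 FPKM in loaded cpTi and 9.64 FPKM in non-loaded cpTi. Between the genes that flank locus 45, RefSeq places Fpr2-ps1, Lypla1-ps3 and Fpr2-ps2. Locus 2752 was also listed at 0 in all 3 loaded Nb3 alloy libraries, against 4.12, 4.68 and 5.47 FPKM in non-loaded Nb3 alloy. Locus 987, matched to Ltb4r, the leukotriene B4 receptor of neutrophils, averaged 2.20 ± 0.572 FPKM in loaded Nb3 alloy and 7.37 ± 2.12 FPKM in non-loaded Nb3 alloy (SD, n = 3 each), a difference of -1.37 (limma adjusted p 0.00774). All 7 tested neutrophil precursor markers fell in the same comparison.

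The 8 immunoglobulin variable loci lie on chromosome 6, where the heavy chain variable segments that B cells join to make an antibody gene are arrayed. Locus 2662 spans 934668 bases with a transcript length of 1962 bases, and its span encloses locus 2664. The summed level of the 8 loci was 45.7, 75.2 and 11.8 FPKM in loaded Nb3 alloy and 115, 82.4 and 80.3 FPKM in non-loaded Nb3 alloy. It was 135, 81.0 and 102 FPKM in loaded cpTi and 157, 60.5 and 79.9 FPKM in non-loaded cpTi. The sums of loaded Nb3 alloy were all below those of non-loaded Nb3 alloy, and the cpTi groups overlapped. In 2 of the loaded Nb3 alloy libraries 2 and 4 of the 8 loci were listed at 0, while 0 were in the first. The locus with the highest level was not the same in every library: it was locus 2669 in 2 loaded Nb3 alloy libraries, with 20.2 and 22.1 FPKM, and locus 2677 in the other.

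Loci 2662, 2671, 2672 and 2675 fell with loading in Nb3 alloy, where 45.8% of all tested rows were called and 25.2% were lower. The other 4 of the 8 were not called. Among these, locus 2664 (-1.38) was called with the replicate block and without loaded Nb3 alloy replicate 2 (-1.80, limma adjusted p 0.0482). Locus 2671 had 0.756, 0 and 0.360 FPKM in loaded Nb3 alloy and 8.09, 18.9 and 19.4 FPKM in non-loaded Nb3 alloy, a difference of -3.53 ± 0.73 (limma adjusted p 0.00259). Locus 2672 averaged 0.586 ± 1.01 FPKM in loaded Nb3 alloy and 9.55 ± 3.39 FPKM in non-loaded Nb3 alloy (SD, n = 3 each). The fall of locus 2662 by 1.50 was no longer called without loaded Nb3 alloy replicate 1 (-1.24), loaded Nb3 alloy replicate 3 (-1.19) or non-loaded Nb3 alloy replicate 3 (-1.43). Locus 2669 turned on single libraries: its 0.60 became 2.08 without loaded Nb3 alloy replicate 3, with a limma adjusted p of 0.00205. It became -0.12 without replicate 1 and -0.18 without replicate 2 of that group. Locus 2669 would not have passed the rule without the loaded Nb3 alloy libraries, so nothing is read from its call. Variable segments resemble each other, so reads could be split between these loci. Of 8 B lineage markers, 7 fell in the same comparison. The list includes Ighm, the nearest named gene of loci 2662, 2664 and 2669. Ighm had 765, 626 and 278 FPKM in loaded Nb3 alloy and 914, 778 and 461 FPKM in non-loaded Nb3 alloy, which overlap.

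**Figure D2:**
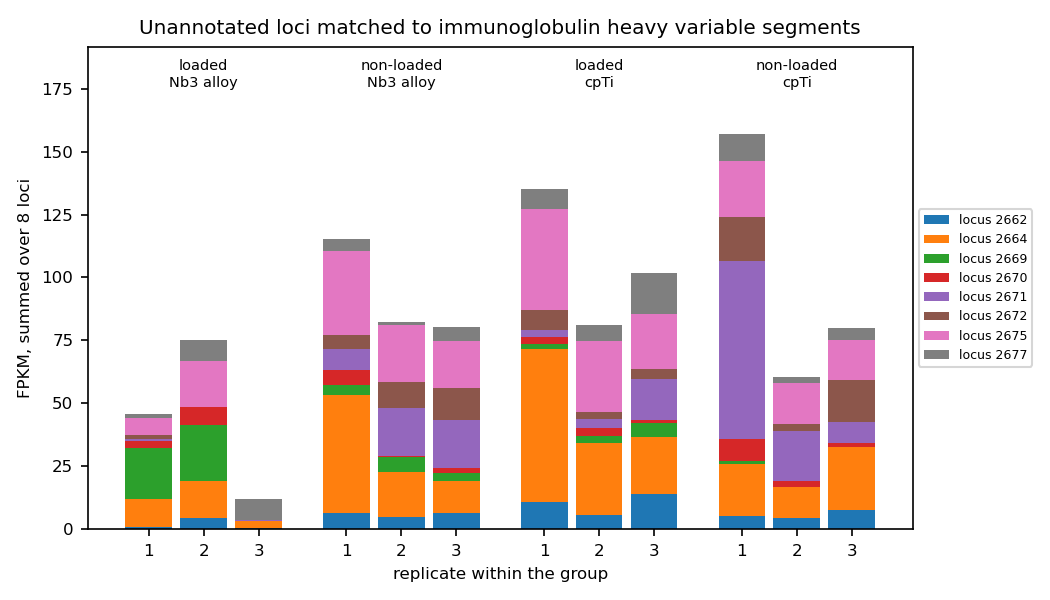
Bars give FPKM stacked over the 8 loci matched to immunoglobulin heavy variable segments, 1 bar per library, grouped by implant and loading. The 3 sums of loaded Nb3 alloy, 45.7, 75.2 and 11.8 FPKM, lie below the 3 of non-loaded Nb3 alloy, and the colours differ in share between libraries of 1 group.

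Of the 3 loci with retroviral protein matches, 2 fell and 1 was not called, where 25.2% of all tested rows were called lower. With 3 loci, this count describes these loci only. Locus 1958 had 0, 0.224 and 0 FPKM in loaded Nb3 alloy and 6.25, 3.67 and 5.32 FPKM in non-loaded Nb3 alloy, without overlap (-2.48 ± 0.23, limma adjusted p 1.6e-05). Locus 3112 had 0.207, 0 and 0.127 FPKM in loaded Nb3 alloy against 17.9, 4.47 and 1.16 FPKM in non-loaded Nb3 alloy. Its difference was -2.45 ± 0.82 (limma adjusted p 0.0305). Locus 701 averaged 17.6 ± 15.7 FPKM in loaded Nb3 alloy and 9.65 ± 4.05 FPKM in non-loaded Nb3 alloy (SD, n = 3 each), and its difference of 0.53 ± 0.53 was not called (limma adjusted p 0.447).

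The 13 loci that rose included loci 486, 2330 and 1016. Loci 486 and 2330 reached 5 FPKM in 4 libraries and passed the rule only with those of loaded Nb3 alloy. The values compared thus chose them, and nothing is read from their calls. Locus 486 (chr10:79871716-79881090), head to head with Col1a1, the main collagen chain of bone, at 2532 bases, had 7.59, 8.58 and 8.06 FPKM in loaded Nb3 alloy. It had 0.0240, 1.93 and 1.45 FPKM in non-loaded Nb3 alloy, so the groups did not overlap. The difference was 2.22 ± 0.54 (limma adjusted p 0.0063), and Col1a1 itself rose by 1.84. Locus 2330, tail to tail with Kank4, an adaptor of the cytoskeleton, at 5 bases, averaged 13.0 ± 3.33 FPKM in loaded Nb3 alloy and 3.29 ± 1.72 FPKM in non-loaded Nb3 alloy (SD, n = 3 each). Its rise was 1.75 and that of Kank4 1.17. Locus 1016, tail to tail with Ednrb, an endothelin receptor, at 3 bases, had 15.9, 18.8 and 16.8 FPKM in loaded Nb3 alloy against 8.04, 3.73 and 3.40 FPKM in non-loaded Nb3 alloy. It rose by 1.66 and Ednrb by 1.19. All 8 fibroblast and matrix genes, and all 5 smooth muscle markers, also rose in this comparison.

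Locus 395, matched to Gngt2, a G protein gamma subunit, had 27.3, 52.7 and 14.6 FPKM in loaded Nb3 alloy and 5.35, 9.16 and 13.7 FPKM in non-loaded Nb3 alloy. The groups did not overlap, by a narrow gap, and the difference was 1.55 ± 0.41 (limma adjusted p 0.01). Abi3, a regulator of actin 126 bases away head to head, rose by 1.02. Loci 985 and 1444 rose by 1.21 and 1.06. Locus 1444 would not have passed the rule without the loaded Nb3 alloy libraries, so nothing is read from its call. Without loaded Nb3 alloy replicate 2 loci 985 and 1444 lost the call, at 1.13 and 0.83. Locus 985 also lost it without loaded Nb3 alloy replicate 3 (1.13) or non-loaded Nb3 alloy replicate 1 (0.71), and locus 1444 without non-loaded Nb3 alloy replicate 3 (0.86).

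**Figure D3:**
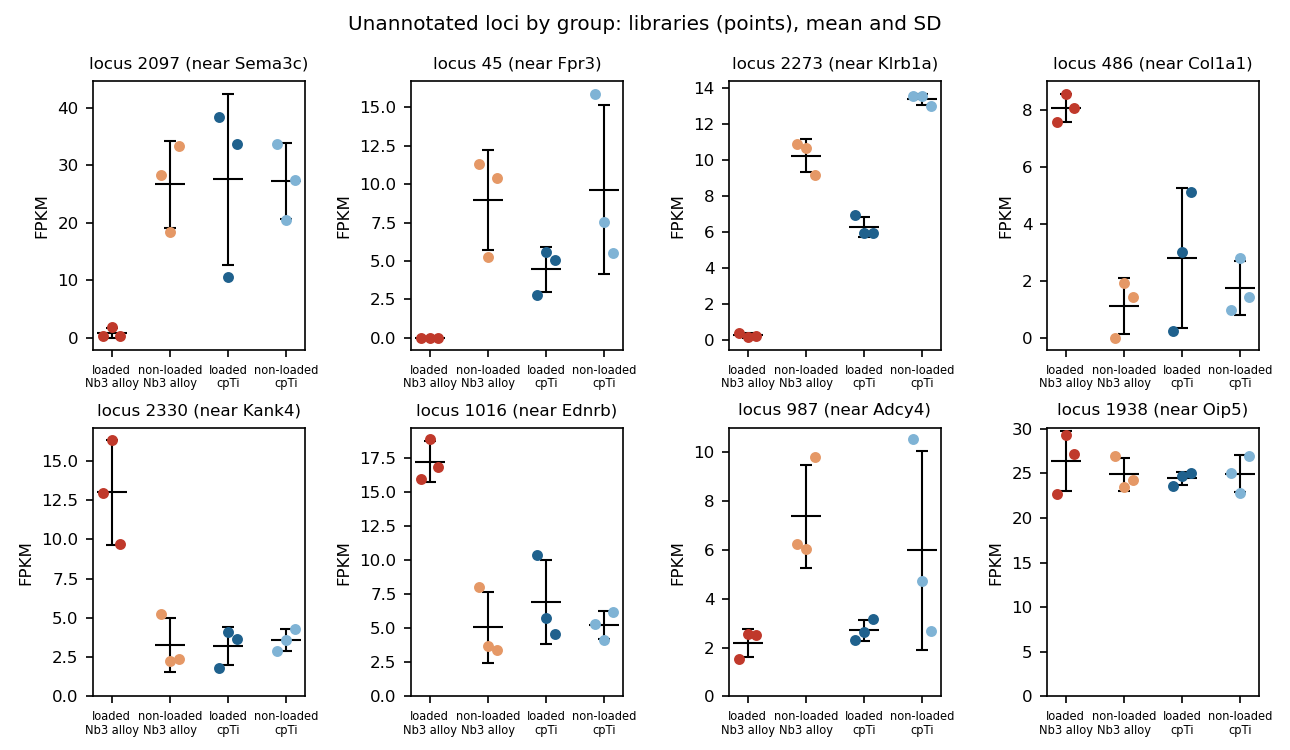
Points are single libraries in FPKM, with the group mean and SD as a bar and whiskers, for 8 loci. Panel titles give the nearest named gene, whose levels are not drawn. Loci 2097, 45, 2273 and 987 are low in loaded Nb3 alloy, loci 1016, 2330 and 486 are high there, and locus 1938 has overlapping values in all 4 groups.

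Loading beside cpTi gave no called locus of 83 in limma at an adjusted p under 0.05, where 0.00655% of all tested rows were called. At an unadjusted p under 0.05 there were 5 of 83 loci and 1062 of 15268 rows, and limma without trend and robust moderation called 1 of the 83, locus 2273. limma-voom called 0 of all tested rows. After locus 2273, the smallest p-values belonged to locus 1319, with 2.99, 2.55 and 7.01 FPKM in loaded cpTi and 7.53, 7.15 and 8.95 FPKM in non-loaded cpTi, and to locus 1641, matched to the mismatch repair gene Msh3. Their differences were -0.87 ± 0.30 and -0.62 ± 0.24, with limma adjusted p of 0.666 and 0.674.

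Under loading, 8 loci were higher and 22 lower beside Nb3 alloy than beside cpTi, 30 of 83 or 36.1%, where 33.6% of all tested rows were called, 14.7% higher and 18.9% lower. This comparison shares the loaded Nb3 alloy libraries with the comparison of loading in Nb3 alloy. Loci 486 and 2330 passed the rule only with those libraries, so nothing is read from their calls here. The difference was -3.83 ± 0.45 at locus 2097 and -2.52 ± 0.23 at locus 1958, against 1.76 ± 0.30 at locus 2330 and 1.27 ± 0.30 at locus 1016. The call of locus 486, 1.52 with a limma adjusted p of 0.0499, was lost without any 1 of the 3 loaded Nb3 alloy replicates (1.49 to 1.56). It was also lost without loaded cpTi replicate 1 (0.87) and under most other alternatives. Without loading, 0 of 83 loci and 0% of all tested rows were called between Nb3 alloy and cpTi in limma. At an unadjusted p under 0.05 there were 3 loci (1983, 2273 and 991) and 470 rows, and locus 2273 averaged 10.2 ± 0.923 FPKM in non-loaded Nb3 alloy and 13.4 ± 0.306 FPKM in non-loaded cpTi (SD, n = 3 each).

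The interaction asks whether loading changed a locus differently in Nb3 alloy than in cpTi. It was called for 21 loci, 4 above and 17 below 0, or 25.3%, where 20.2% of all tested rows were called, 8.42% above and 11.8% below 0. The 5 lowest were loci 2097 (-3.79 ± 0.63), 1085 (-2.78 ± 0.54), 44 (-2.73 ± 0.50), 2752 (-2.49 ± 0.45) and 45 (-2.38 ± 0.51). Loci 2330 (1.92 ± 0.43), 1016 (1.37 ± 0.43), 1878 (1.26 ± 0.30) and 1206 (0.95 ± 0.27) were the 4 above 0. Locus 1878 entered the 83 through its loaded Nb3 alloy libraries alone, so the values in this comparison chose it, and nothing is read from its call. Locus 2330 would not have passed the rule without those libraries, so the same holds for it. The call of locus 1016 was lost in 10 of the 12 fits that left out 1 library (1.16 to 1.50), and that of locus 1206 in 6 of the 12 (0.78 to 0.89). Locus 1085 is a short locus near Galnt7 with 1.38, 0 and 0 FPKM in loaded Nb3 alloy, 7.81, 8.20 and 6.50 FPKM in non-loaded Nb3 alloy, 8.62, 2.83 and 5.26 FPKM in loaded cpTi, and 5.79, 3.39 and 5.07 FPKM in non-loaded cpTi. It is lowest in every loaded Nb3 alloy library, and the cpTi groups overlap.

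**Figure D4:**
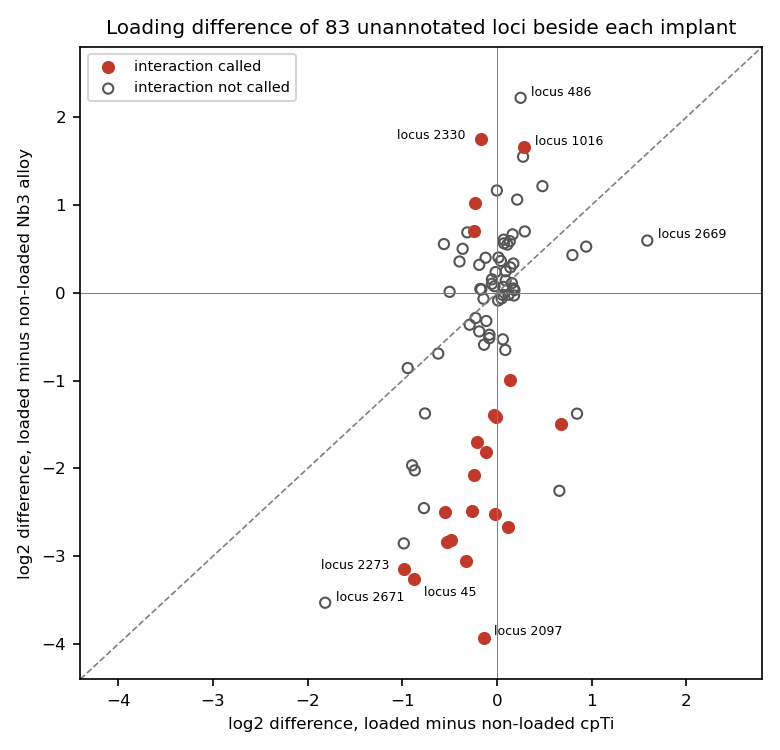
Each point is 1 of the 83 loci, placed by its log2 difference between loaded and non-loaded cpTi (x axis) and between loaded and non-loaded Nb3 alloy (y axis), with the line of equal differences dashed. The 21 loci with a called interaction are filled, and locus 2097 lies at -3.93 beside Nb3 alloy and -0.14 beside cpTi.

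Whether a locus moved with its nearest named gene was tested as the difference of their differences, for the 638 unnamed loci whose neighbour was tested. Of the 83, 72 had such a neighbour, and 27 of the 72 differed from it with loading in Nb3 alloy, 37.5%, where 33.2% of all such pairs were called. With loading in cpTi 0 of the 72 were called, where 0.157% of all pairs were. Among the 44 pairs within 5 kb, both partners were called in the same direction in 13 and in opposite directions in 1. The gene alone was called in 16, the locus alone in 5 and neither in 9. The same split was not made over all 638 pairs, so these counts describe the 44 pairs only.

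Several loci kept overlapping levels beside a gene that fell. Locus 1938 (chr3:106578301-106591921) had 22.7, 29.3 and 27.2 FPKM in loaded Nb3 alloy and 27.0, 23.5 and 24.2 FPKM in non-loaded Nb3 alloy. Between its flanking genes RefSeq has the long non-coding RNA Oip5-as1. Oip5, a centromere protein gene of dividing cells 1839 bases away, averaged 0.976 ± 0.511 FPKM in loaded Nb3 alloy and 12.9 ± 1.74 FPKM in non-loaded Nb3 alloy (SD, n = 3 each). The pair differed by 2.91 ± 0.28 (limma adjusted p 1.2e-05). All 8 cell cycle genes fell in the same comparison.

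Locus 1847 differed by 3.37 ± 0.36 from Vpreb3, a gene of developing B cells that averaged 0.876 ± 0.179 FPKM in loaded Nb3 alloy and 20.7 ± 10.2 FPKM in non-loaded Nb3 alloy (SD, n = 3 each). Locus 1407 differed by 2.86 ± 0.39 from Abcb10, a mitochondrial transporter gene of red cell precursors, which fell by 3.30. At 21 bases, head to head, locus 295, matched to Tmem138, had 2.97, 3.51 and 3.77 FPKM in loaded Nb3 alloy and 4.23, 4.99 and 3.96 FPKM in non-loaded Nb3 alloy. These do not overlap, although the difference of -0.29 was not called. Cyb561a3, of the cytochrome b561 family, averaged 13.2 ± 2.01 FPKM in loaded Nb3 alloy and 53.2 ± 9.48 FPKM in non-loaded Nb3 alloy (SD, n = 3 each), and the pair differed by 1.64 ± 0.26 (limma adjusted p 0.00036). The other head-to-head pairs whose start regions are printed above differed by less. Locus 2418, matched to Cdc26 of the anaphase-promoting complex, differed by 0.76 from the splicing factor gene Prpf4 (adjusted p 0.0245, limma). Locus 2619 differed by 0.68 from Mgat2, an enzyme of N-glycan synthesis (adjusted p 0.0482, limma). Locus 2001 differed by 1.26 from Psmd5, and lost that call without loaded Nb3 alloy replicate 2 (0.83) or non-loaded Nb3 alloy replicate 3 (0.84), among others. Locus 2001 would not have passed the rule without the loaded Nb3 alloy libraries, so nothing is read from the call of this pair.

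In the opposite sense, locus 987 fell by 1.37 while Adcy4, an adenylyl cyclase gene tail to tail with it at 495 bases, rose by 1.40. Adcy4 had 9.67, 18.1 and 12.6 FPKM in loaded Nb3 alloy and 4.95, 4.15 and 3.98 FPKM in non-loaded Nb3 alloy, so the groups of both partners are separate, in opposite directions. The pair differed by -2.77 ± 0.36 (limma adjusted p 9.7e-05). Locus 2097 differed from Sema3c by -6.06 ± 0.56, locus 2273 from Klrb1a by -3.39 ± 0.37, and loci 2671 and 2672 from Zfp386 by -3.70 ± 0.73 and -3.02 ± 0.63. In these 4 pairs the nearest named gene lies 40651 to 1656733 bases away. All 11 pairs with the locus above its neighbour were within 5 kb, and of the 16 with the locus below, 5 were within 5 kb. This split by direction and distance was not made over all 638 pairs, so it describes the called pairs only.

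**Figure D5:**
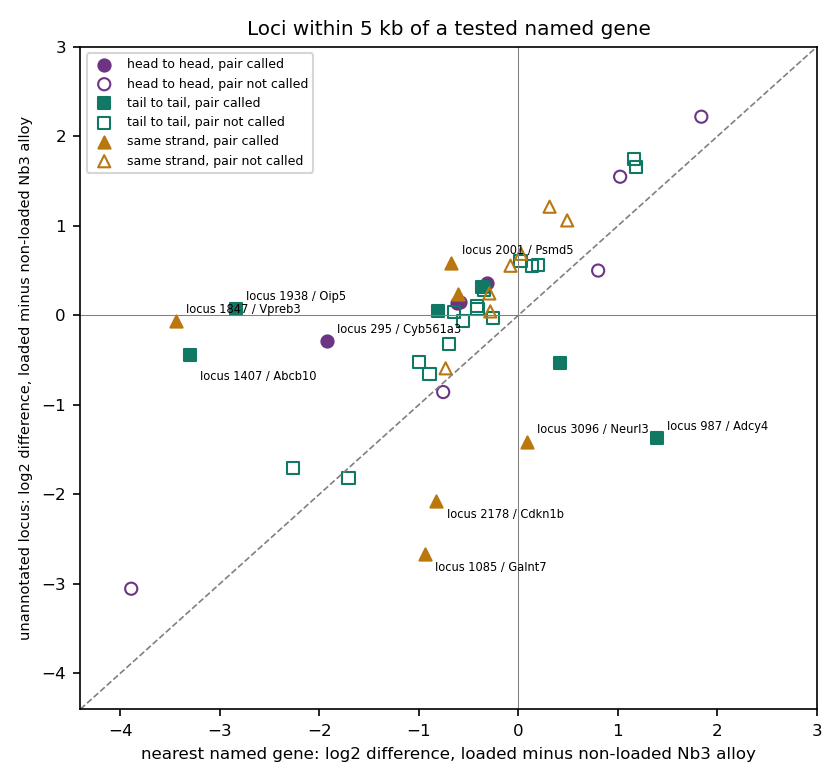
Each point is 1 of the 44 pairs within 5 kb, with the log2 difference between loaded and non-loaded Nb3 alloy of the nearest named gene on the x axis and of the locus on the y axis, and shapes for orientation. Filled points are called pairs; those at the left, such as locus 1938 with Oip5, have a gene that fell beside a locus that was not called, and locus 987 with Adcy4 lies in the lower right.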

How the data were processed

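The authors deposited 1 table of FPKM per row and library, with position, length and description. Per the submitters' processing notes, the tools included HISAT2 2.0.5, fastp, CASAVA 1.8, DESeq2 1.20.0 and featureCounts 1.5.0-p3, with no roles stated. No source used here names the assembler, the genome build or the strand setting. Per the labels' protocols, polyadenylated RNA was made into libraries with the NEBNext Ultra kit. FPKM times length was divided by a unit per library, started at the smallest nonzero product and refined by least squares. The quotients were whole numbers in 100% of values (tolerance 0.01). With that unit taken as 1 read, depth was 12.9 to 22.3 M reads, and these reads served limma-voom.

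A row was tested where it reached 1 FPKM in 3 libraries, which 15268 of 33801 rows did, all 83 loci among them by their own rule. The test was limma 3.58.1 (R 4.3.3, statmod 1.5.0) on log2(FPKM + 1), fitting a mean for each of the 4 groups over all 12 libraries, with trended and robust moderation. Fold changes on this scale understate the change of low rows. Pairs were tested on the difference of log2 values between a locus and its nearest named gene, over 638 pairs. RefSeq GRCr8 tables gave names, gene order and start regions, and coordinates of the 2 sources were not mixed. The script was tested on simulated data.

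The loci, the marker lists and the rules for naming were chosen with earlier results of these data known. Named are the 10 loci with the highest mean, up to 6 called loci without overlap each way per comparison (5 in the interaction, or the 3 smallest p where none was called), 3 on each side of the threshold, loci beside a listed marker gene, and up to 5 called pairs each way. The grouping by protein match and orientation, and loci named outside these rules (3112, 701, 2418, and the loci listed by their match), were chosen after values were seen. Same-numbered replicates were not paired. Python 3.11.15 with numpy 2.4.6, pandas 2.3.3 and matplotlib 3.10.9 made the tables and plots.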

Additional observations from a re-analysis of the deposited data

Results flagged for a closer look

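The effect of loading differed between Nb3 alloy and cpTi at 21 of the 83 loci by the interaction test in limma, 25.3%, where 20.2% of all tested rows were called. For the 9 named loci the interaction, as the log2 difference in Nb3 alloy minus that in cpTi, was -3.79 at locus 2097, -2.78 at locus 1085, -2.73 at locus 44, -2.49 at locus 2752 and -2.38 at locus 45. It was 1.92 at locus 2330, 1.37 at locus 1016, 1.26 at locus 1878 and 0.95 at locus 1206. Locus 1878 reached 5 FPKM in loaded Nb3 alloy alone, so its selection used the values compared and nothing is read from its call. Locus 2330 passed the rule only with the loaded Nb3 alloy libraries, so the same holds for it. The call of locus 1016 was lost in 10 of the 12 fits that left out 1 library, with values of 1.16 to 1.50, and that of locus 1206 in 6 of the 12, with 0.78 to 0.89. The libraries of loaded Nb3 alloy also stood apart in erythroid, neutrophil and mitochondrial levels, and their part in these interactions was not tested.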

How the results depend on the processing

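The count of 41 called loci for loading in Nb3 alloy depends on who is counted. Loci with a mean of at least 5 FPKM over all libraries number 56, with 23, 18 and 13 called for loading in Nb3 alloy, material under loading and interaction, where 45.8%, 33.6% and 20.2% of all tested rows were called. Of the 44 that reach 5 FPKM in every group, 12, 6 and 3 were called, but that rule removes loci that fell. Both were chosen after seeing the data. At 2 FPKM the rule would take 274 loci and at 10 FPKM 37.

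Leaving out 1 library gave 34 to 40 loci and 5595 to 6873 rows for loading in Nb3 alloy, 23 to 32 and 3442 to 5159 for material under loading, and 15 to 23 and 1997 to 3095 for the interaction. It gave 0 to 1 loci and 0 to 4 rows for loading in cpTi, 0 loci and 0 to 4 rows for material without loading, and 18 to 27 pairs in Nb3 alloy. For loading in cpTi, 1 row was called, against 0 with a pseudocount of 0.1, the replicate block, limma-voom or the compared groups alone, 2 without a filter, and 3 (1 of them a locus) without trend and robust moderation. Without a filter, 1 row was called for material without loading.

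Same-numbered libraries did not deviate together (r of -0.252 to 0.115). With the replicate block, 40, 0, 30, 0 and 21 loci and 6568, 0, 4591, 0 and 2608 of 15268 rows were called for loading in Nb3 alloy, loading in cpTi, material under loading, material without loading and the interaction, and locus 2664 was called, at -1.38 for loading in Nb3 alloy.

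With a distance of 2 kb, 9 loci lay downstream and 1 upstream of a gene on the same strand, and with 10 kb 25 lay downstream. With unnamed annotated rows included, 4 lay upstream and 1 overlapped.

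Of 61 named differences, 44 were called. Of these 35 kept the call in all alternatives run, 9 lost it in at least 1, and 0 reversed. Reversed values for loading in Nb3 alloy were all uncalled. Scaled to total reads they were -0.10 (locus 1938), -0.030 (2291), -0.072 (289) and -0.11 (3025). For locus 2669 they were -0.27 with a pseudocount of 0.1 and -0.48 with limma-voom. Leaving out 1 library gave -0.15 to 0.033 (locus 1483), -0.0013 to 0.18 (1938), -0.063 to 0.35 (2291), -0.18 to 2.08 (2669), -0.064 to 0.30 (289) and -0.36 to 0.34 (3025). The causes were not tested. The interaction has no fit with the compared groups alone. Precision is limited by a median of 194.5 reads per locus and 3 libraries a group, and no detection limit was computed.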

Other observations

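Some loci lie closer to an annotated row without a usable name than to a named gene. Locus 1085 lies 188 bases from a row described as the small nucleolar RNA SNORA48, which was listed at 0 in all 3 libraries of loaded Nb3 alloy and averaged 6.59 ± 3.14 FPKM in non-loaded Nb3 alloy (SD, n = 3), a called fall on the log2(FPKM + 1) scale. Locus 1878 lies 3983 bases from a row annotated as a long non-coding RNA, which averaged 32.8 ± 3.59 FPKM in loaded Nb3 alloy and 11.9 ± 3.41 FPKM in non-loaded Nb3 alloy (SD, n = 3 each) and rose by 1.42. Locus 1878 itself averaged 6.50 ± 0.296 FPKM in loaded Nb3 alloy and 2.74 ± 0.722 FPKM in non-loaded Nb3 alloy (SD, n = 3 each). Locus 991, 13 bases from the microRNA gene Mir15a and tail to tail with it, averaged 2.17 ± 0.151 FPKM in loaded Nb3 alloy and 7.40 ± 1.66 FPKM in non-loaded Nb3 alloy (SD, n = 3 each), a called difference of -1.39.

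Both loci matched to Wdr33, a factor of mRNA 3' end processing, were lower with loading in Nb3 alloy. Locus 1306 averaged 2.92 ± 1.10 FPKM in loaded Nb3 alloy and 6.59 ± 0.460 FPKM in non-loaded Nb3 alloy (SD, n = 3 each), and locus 1307 averaged 3.55 ± 0.183 FPKM in loaded Nb3 alloy and 5.57 ± 0.247 FPKM in non-loaded Nb3 alloy (SD, n = 3 each). RefSeq places 1 gene, Wdr33, between the genes that flank both, so they are not taken as independent loci.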
